A study of Mus musculus with 6 samples.

Results

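Epcam and Cdh1 encode surface proteins that hold epithelial cells together, and they were examined in the embryonic midbrain with 8 other genes of epithelial adhesion, cell junctions or epithelial regulation: Ocln, Cldn7, Spint1, Spint2, Dsp, Esrp1, Ripk4 and Mpzl2. All probe sets annotated to one of these symbols alone were taken, which gave 18 probe sets for the 10 genes, out of 45037 probe sets and 18193 genes with a probe set of their own. The genes were put together with the outcome of this same comparison known. The study's own list of genes that differ on these arrays holds Epcam, Ocln, Ripk4 and Mpzl2. Differences of the 10 genes between the groups are therefore given as a description, and no test on them carries weight.

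RNA came from dorsal midbrain of mouse embryos at embryonic day 10.5 and was hybridized to 6 arrays, 3 for Ezh2 cko and 3 for control. The platform is named Affymetrix A430 in the methods. By the methods, Ezh2 cko embryos were Wnt1-Cre+/Ezh2[SET]lox/lox, so that Wnt1-Cre removed the part of Ezh2 encoding the SET domain, the methyltransferase part of the protein. Controls were littermates of either Wnt1-Cre-/Ezh2[SET]lox/lox or Wnt1-Cre+/Ezh2[SET]wt/lox genotype, so the floxed allele was common to both groups. The labels call every control WT and do not tell these genotypes apart. Both groups are labelled C57BL/6. By the methods each came from different litters, fewer than its samples, so some samples of a group shared a litter. The labels do not assign litters to samples. The study describes 3 dissected midbrains per group. Wnt1-Cre also acts in neural crest cells, and by the study's description recombination was complete in the caudal and partial in the rostral dorsal midbrain. The deleted tissue was thus not uniform. In RNA from whole tissue, fewer cells of a type and less RNA per cell cannot be told apart.

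Epithelial cells are joined by adherens junctions built on E-cadherin, by tight junctions that seal the space between cells, and by desmosomes that anchor intermediate filaments. The neural tube forms from ectoderm that carries E-cadherin and occludin, and its cells lose both as they turn to N-cadherin, while the overlying surface ectoderm keeps E-cadherin. Ezh2 is the catalytic subunit of Polycomb repressive complex 2, which places the trimethyl mark on lysine 27 of histone H3 at many silent developmental genes.

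The values are log2 signals of probe sets, normalized together by RMA, so that a difference of 1 is a doubling of the signal. RMA sets no level at which a transcript is absent, and groups were compared only within a probe set. Levels of different sets served only to choose 1 set per gene for the lists. Across the 6 arrays the median signal was 5.69 to 5.73. Of the markers of the labelled tissue, Sox2 was at 12.19 ± 0.14 in Ezh2 cko and 12.15 ± 0.12 in control and En2 at 12.51 ± 0.11 in Ezh2 cko and 12.34 ± 0.06 in control (SD, n = 3 each). Not all such markers were as steady. Over 11 of them the difference, Ezh2 cko minus control, ran from -0.25 to 0.90, with 9 positive and 2 negative. Wnt1 was at 0.90, Lmx1b at 0.57 and En1 at 0.37. The Ezh2 probe set 1416544_at read 11.79, 11.74 and 11.72 in Ezh2 cko and 11.69, 11.76 and 11.66 in control. It is not known here to lie in the deleted part, so these values do not check the genotype.

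Of the 18 probe sets, 17 had a higher mean in Ezh2 cko than in control, and the median difference was 0.61, against -0.02 over all 45037 probe sets. In 15 sets every Ezh2 cko array lay above every control array, which held for 5.72% of all probe sets. In 1 set, that of Esrp1, every Ezh2 cko array lay below every control array, as in 7.27% of all sets. The groups overlapped in 2 sets, both of Dsp. In limma's fit across all probe sets, 5 of the 18 passed a Benjamini-Hochberg adjusted p of 0.05 in the higher direction, 1 each for Mpzl2, Epcam, Ripk4, Cdh1 and Ocln, where 0.184% of all sets passed. None of the 18 passed in the lower direction, where 0.00444% of all sets did, and 1 of the 18, the Esrp1 set, had an unadjusted p under 0.05 in that direction. With each gene taken by the set with the highest mean signal, 8 of the 10 had every Ezh2 cko array above and 1 below every control array, against 7.52% and 7.88% of all genes. At the fold and unadjusted p that the methods set, with the p taken from limma, 5 of the 18 sets passed higher, where 0.24% of all sets did. These shares are background to a choice made on the same contrast, and nothing is read from them. Under the methods' unpaired test on the same values, none of the 18 passed after adjustment, and 12 had an unadjusted p under 0.05 in the higher direction and 1 in the lower.

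**Figure D1:**
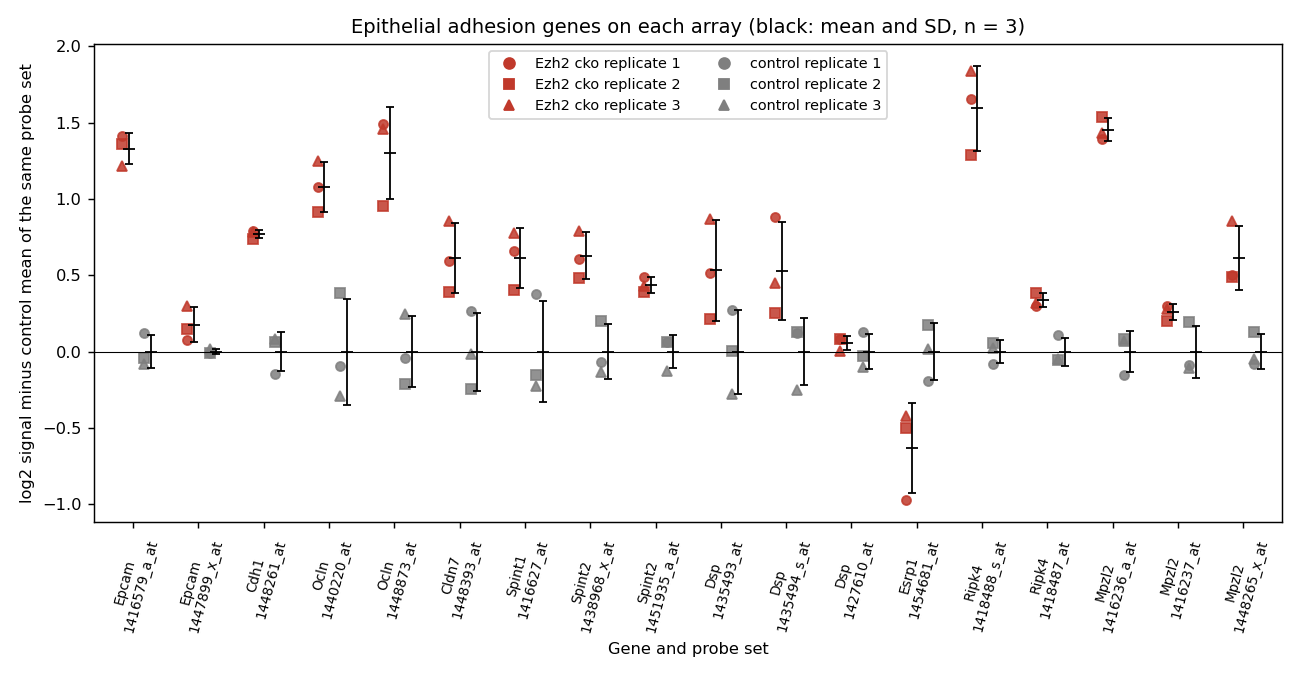
Log2 signal of each of the 18 probe sets on each array, as the difference from the control mean of the same set (y axis), by gene and probe set (x axis); red marks Ezh2 cko and grey control, symbols mark replicates, and black marks the mean and SD (n = 3). The groups are apart in all sets but Dsp 1435493_at and Dsp 1427610_at, and for Esrp1 the Ezh2 cko arrays are the low ones.

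Epcam is a surface glycoprotein of epithelial cells that can bind its like on the next cell. Its probe set 1416579_a_at, whose suffix marks probes shared by several transcripts of the same gene, read 9.08, 9.03 and 8.88 in Ezh2 cko and 7.79, 7.63 and 7.58 in control. All 3 Ezh2 cko arrays were more than 1 log2 unit above the highest control array, and within each group the arrays lay close together. The difference was 1.33 (SE 0.09), or 2.51-fold, and it was the 27th highest of all probe sets. The other set, 1447899_x_at, whose suffix marks probes that may also bind other sequences, read 6.74, 6.81 and 6.96 in Ezh2 cko and 6.65, 6.65 and 6.67 in control. The groups were apart there too, by 0.06, but its difference was only 0.18 (SE 0.08). Both Epcam sets thus had the same direction with differences 1.15 apart.

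Cdh1 encodes E-cadherin, the adhesion molecule of epithelial adherens junctions. Its only set, 1448261_at, read 7.85, 7.80 and 7.84 in Ezh2 cko and 6.91, 7.13 and 7.15 in control. The Ezh2 cko arrays were nearly alike, with an SD of 0.028 against 0.130 in control, and the lowest of them was 0.65 above the highest control. The difference was 0.77 (SE 0.09), or 1.71-fold.

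Ocln and Cldn7 encode membrane proteins of tight junctions, occludin and claudin 7, and claudin 7 is also known as a binding partner of Epcam. Ocln 1440220_at read 6.58, 6.42 and 6.75 in Ezh2 cko and 5.41, 5.88 and 5.21 in control. Ocln 1448873_at read 6.46, 5.93 and 6.43 in Ezh2 cko and 4.93, 4.76 and 5.22 in control. The groups were apart in both, by 0.53 and by 0.71, with Ezh2 cko replicate 2 the lowest array of its group each time. The differences were 1.08 (SE 0.17) and 1.30 (SE 0.16), the closest agreement but one among the genes with several sets. Cldn7 1448393_at read 5.48, 5.28 and 5.75 in Ezh2 cko and 5.16, 4.64 and 4.87 in control, a difference of 0.61 (SE 0.15). Here the groups were only 0.13 apart, since control replicate 1 came close to Ezh2 cko replicate 2.

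Spint1 and Spint2 encode membrane-bound Kunitz inhibitors of serine proteases such as matriptase and the hepatocyte growth factor activator. Spint1 1416627_at read 5.68, 5.42 and 5.80 in Ezh2 cko and 5.40, 4.86 and 4.80 in control, with a difference of 0.61 (SE 0.17). As for Cldn7, control replicate 1 was the high one, and it left a gap of just 0.02 to Ezh2 cko replicate 2. Spint2 1438968_x_at read 8.98, 8.86 and 9.16 in Ezh2 cko and 8.31, 8.57 and 8.24 in control, and Spint2 1451935_a_at read 8.52, 8.42 and 8.46 in Ezh2 cko and 8.10, 8.09 and 7.91 in control. The groups were apart in both Spint2 sets, and the differences of 0.63 (SE 0.12) and 0.44 (SE 0.08) were 0.19 apart, the closest agreement among the 6 genes with several sets. Neither Spint2 set nor the Spint1 set passed the adjusted p.

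Dsp encodes desmoplakin, which ties desmosomes to intermediate filaments, and its 3 sets agreed least on whether the groups were apart. Set 1435493_at read 5.35, 5.04 and 5.70 in Ezh2 cko and 5.10, 4.83 and 4.55 in control, where Ezh2 cko replicate 2 fell 0.06 below control replicate 1. Set 1435494_s_at, whose suffix marks probes shared between genes, read 5.16, 4.53 and 4.72 in Ezh2 cko and 4.40, 4.40 and 4.02 in control, with the groups apart by 0.12. The differences of these sets were both 0.53, with SEs of 0.18 and 0.17. The third Dsp set, 1427610_at, read 3.41 ± 0.045 in Ezh2 cko and 3.35 ± 0.117 in control (SD, n = 3 each). Its difference of 0.06 was under its SE of 0.08.

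Ripk4 encodes a kinase needed for the differentiation of the mouse epidermis. Ripk4 1418488_s_at read 6.58, 6.21 and 6.76 in Ezh2 cko and 4.84, 4.98 and 4.94 in control. Here the groups were 1.23 apart, and the difference of 1.59 (SE 0.13), or 3.02-fold, was the largest of the 18 and the 11th highest of all probe sets. The suffix of this set allows signal from another gene. The other set, 1418487_at, read 4.80, 4.89 and 4.82 in Ezh2 cko and 4.61, 4.44 and 4.45 in control, so that the groups were again apart but the difference was 0.34 (SE 0.08).

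Mpzl2 encodes an adhesion protein of the immunoglobulin family found in epithelia. Mpzl2 1416236_a_at read 5.85, 5.99 and 5.88 in Ezh2 cko and 4.30, 4.54 and 4.52 in control. The gap between the groups, 1.31, was the widest among the 18 sets, and the difference was 1.45 (SE 0.09), or 2.74-fold. Mpzl2 1448265_x_at read 4.05, 4.03 and 4.40 in Ezh2 cko and 3.46, 3.68 and 3.50 in control, and Mpzl2 1416237_at lay at 4.92 to 5.02 in Ezh2 cko and at 4.61 to 4.92 in control. The difference was 0.62 (SE 0.12) in 1448265_x_at, a set that may bind other sequences, and 0.26 (SE 0.10) in 1416237_at, where control replicate 2 lay 0.0055 below the lowest Ezh2 cko array.

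Esrp1 encodes a splicing factor that holds many transcripts in their epithelial form, and it was the only one of the 10 genes that was lower in Ezh2 cko. Its set 1454681_at read 5.11, 5.58 and 5.66 in Ezh2 cko and 5.89, 6.26 and 6.10 in control. Every Ezh2 cko array was below every control array, with a gap of 0.23, and Ezh2 cko replicate 1 was the lowest. The difference was -0.63 (SE 0.15), the 35th lowest of all probe sets.

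**Figure D2:**
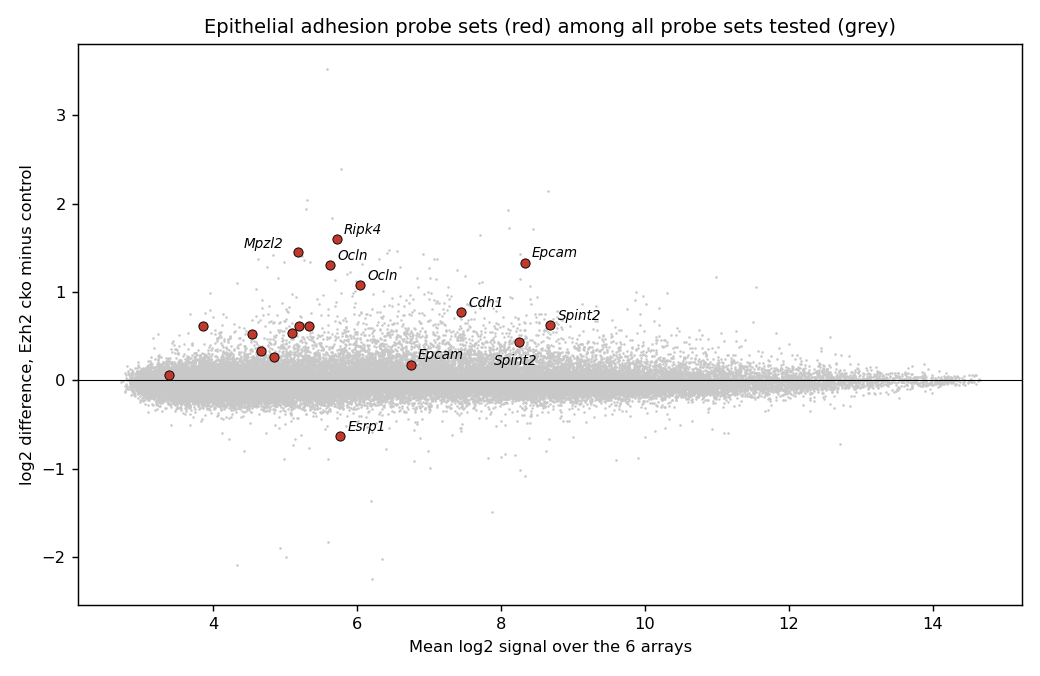
Log2 difference, Ezh2 cko minus control, against the mean log2 signal over the 6 arrays, for all 45037 probe sets in grey and the 18 sets of the 10 genes in red; names are given for sets beyond 0.7 and for those of Epcam, Spint2 and Esrp1. Both Ocln sets and 1 set each of Epcam, Mpzl2 and Ripk4 lie at 1.08 to 1.59, while the other sets of these 3 genes lie at 0.18 to 0.62 and Esrp1 lies at -0.63.

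Agreement between probe sets differed from gene to gene. In all 6 genes with more than 1 set, 14 sets in all, the sets had the same sign, and in 5 of the 6 the groups were apart in every set, Dsp being the exception. The size agreed less well, since the largest and smallest difference within a gene were 1.26 apart for Ripk4, 1.20 for Mpzl2, 1.15 for Epcam, 0.48 for Dsp, 0.22 for Ocln and 0.19 for Spint2. For Ripk4, Mpzl2 and Epcam 1 set gave a difference above 1 and no other set of the gene gave one above 0.62. Whether the sets with small differences bind these transcripts poorly was not tested.

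Among the arrays, Ezh2 cko replicate 3 was the highest of its group in 9 of the 18 sets and replicate 2 the lowest in 12. Control replicate 3 was the lowest of its group in 9. Averaged over the 10 genes, each by the set with the highest mean signal, the deviation from the control mean was 0.77, 0.68 and 0.94 in Ezh2 cko and 0.03, 0.05 and -0.08 in control. The groups did not overlap in this average, to which Esrp1 contributed with the opposite sign. The genes were put together with this contrast known, so nothing is read from that.

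With 1 array left out at a time, all 18 differences kept their sign. Only the 2 Dsp sets in which the groups overlapped could have changed it, since leaving out 1 array cannot reverse groups that are apart. Epcam 1416579_a_at ranged from 1.29 to 1.39, Mpzl2 1416236_a_at from 1.38 to 1.50 and Cdh1 from 0.70 to 0.81, while Ripk4 1418488_s_at did not go below 1.47. Esrp1 ranged from -0.74 to -0.46, and it was nearest to 0 without Ezh2 cko replicate 1. The sets of Epcam, Mpzl2 and Ripk4 passed the adjusted p each time, and that of Cdh1 passed only without control replicate 1. Ocln 1448873_at passed only without Ezh2 cko replicate 2, whereas Ocln 1440220_at, not past with all arrays, passed without control replicate 2.

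**Figure D3:**
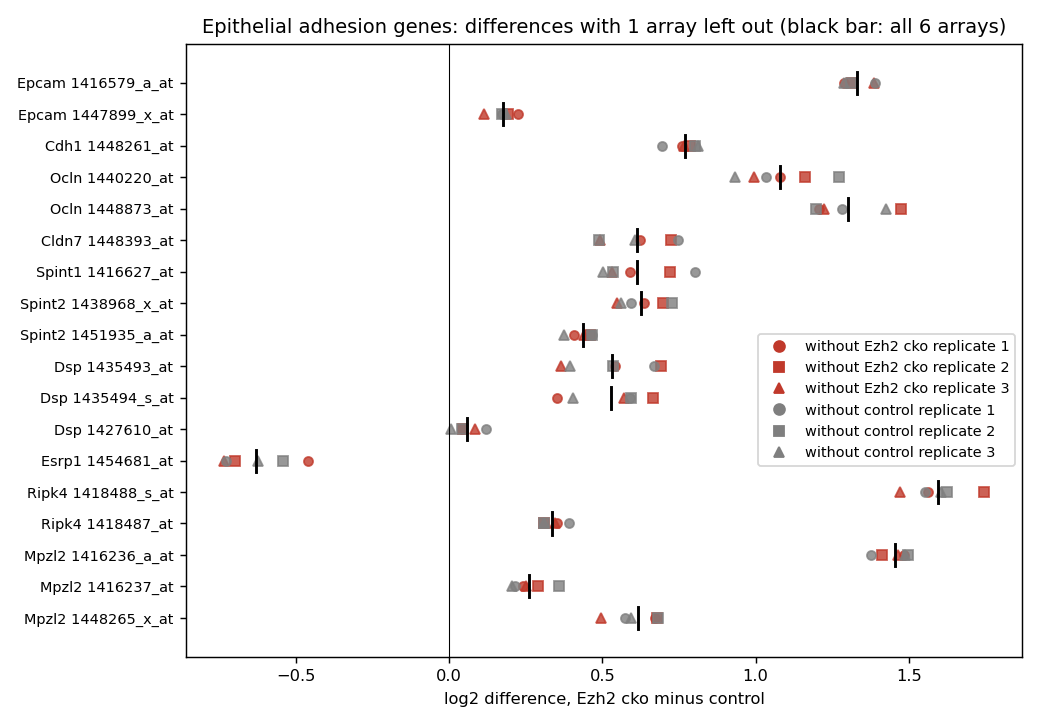
Log2 difference, Ezh2 cko minus control, of each of the 18 probe sets with all 6 arrays and with each array left out in turn. No set crosses 0, which only the 2 Dsp sets with overlapping groups could have done, and Epcam 1416579_a_at stays between 1.29 and 1.39.

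Promoter sequence was at hand for 6 of the 10 genes, Epcam, Ocln, Cldn7, Spint1, Spint2 and Dsp, as the 250 bases before 8 annotated start sites (RefSeq, GRCm38.p6). The letters CACCTG, searched on both strands, form the E-box that repressors of Cdh1 such as Snail and Zeb proteins can bind. They were in 4 of the 8 windows, of 4 genes, against 17.2% of 32851 mouse windows of the same length. Only 2 of these windows, those of Epcam and Spint2, lie before the outermost start of the gene. The windows of Ocln and Cldn7 with a match lie before an inner start. Epcam is shown for the strong difference of one of its sets, Spint2 for its 3 matches and the outermost start of Ocln for its lack of any. Each runs 5′ to 3′ on the strand of the gene and ends at the base before the start, with CACCTG of either strand in capitals (CAGGTG where it is on the other strand).
Epcam, chr17:87635729-87635978, plus strand: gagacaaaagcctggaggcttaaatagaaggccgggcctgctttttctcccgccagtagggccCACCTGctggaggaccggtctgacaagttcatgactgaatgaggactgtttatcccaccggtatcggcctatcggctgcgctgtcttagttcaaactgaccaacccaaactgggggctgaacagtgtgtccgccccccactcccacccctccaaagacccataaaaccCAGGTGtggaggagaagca
Spint2, chr7:29281978-29282227, minus strand: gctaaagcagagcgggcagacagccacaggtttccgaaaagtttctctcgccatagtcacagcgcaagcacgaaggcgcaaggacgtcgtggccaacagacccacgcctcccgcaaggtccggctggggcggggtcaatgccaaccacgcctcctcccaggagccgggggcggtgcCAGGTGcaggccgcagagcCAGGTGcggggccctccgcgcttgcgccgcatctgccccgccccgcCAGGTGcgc
Ocln, chr13:100552719-100552968, minus strand: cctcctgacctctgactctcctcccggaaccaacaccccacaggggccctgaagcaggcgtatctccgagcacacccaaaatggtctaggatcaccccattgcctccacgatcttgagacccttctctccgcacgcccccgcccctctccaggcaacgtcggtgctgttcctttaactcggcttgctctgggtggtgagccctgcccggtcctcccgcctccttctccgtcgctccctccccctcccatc
In Epcam the matches span bases 187 to 182 and 19 to 14 before the start. In Spint2 all 3 lie within 74 bases of it, and an inner start of Ocln had 2. The letters GGGCGG, a GC box, were in 7 of the 8 windows and in 32.7% of all windows, while TATAAA was in none of the 8 and in 12.4% of all. The count of CG pairs was above the median of all windows, 6, in 7 of the 8, with 8 in that of Epcam, 24 in that of Spint2 and 14 in the Ocln window shown. AACCNGTT, the motif of grainyhead-like factors, which drive Epcam and Cdh1 in epithelia, was in none of the 8 and in 1.79% of all windows. A match is a stretch of letters and not a bound site.

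Other genes of the same junctions were set beside the 10, each by its set with the highest mean signal. Over all 18193 genes, 0.297% were higher and 0.0055% lower past the adjusted p, and 43.1% had a positive difference. None of 10 adherens junction genes passed (limma), and none had an unadjusted p under 0.05. Their median difference was 0.04. Cdh2, or N-cadherin, read 12.21 ± 0.05 in Ezh2 cko and 12.05 ± 0.14 in control (SD, n = 3 each), and Jup, a catenin of both adherens junctions and desmosomes, differed by 0.15 (SE 0.08).

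None of 13 tight junction genes passed in limma either, though 5 had an unadjusted p under 0.05 (1614 of all 18193 genes), and the median was 0.04. Marveld2, or tricellulin, of the same protein family as Ocln, read 5.31, 5.13 and 5.13 in Ezh2 cko and 4.75, 4.66 and 4.43 in control (difference 0.57, adjusted p = 0.110). Cldn3 had 4 sets with differences of 0.46 to 0.73, none past the adjusted p, and Cldn1 and Cldn8 were at 0.49 and -0.26. With Marveld2 and Tjp3, at 0.25, these were the genes with an unadjusted p under 0.05.

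Of 9 desmosome genes, 1 rose and none fell, with a median of -0.0014. Pkp2, a plaque protein of desmosomes, rose by 0.69 in set 1449799_s_at (SE 0.09, adjusted p = 0.030) and by 0.71 in 1429183_at (SE 0.10, adjusted p = 0.039), while its 2 other sets were at -0.0083 and -0.04. Leaving out any 1 of the 6 arrays ended both calls, with limma's adjusted p between 0.052 and 0.150 for 1449799_s_at and between 0.054 and 0.154 for 1429183_at. Perp and Dsc2 were each at 0.34 and Pkp1 at -0.14, none past the test.

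Of 7 genes of membrane proteases and of the growth factor pathway that Spint1 and Spint2 act on, 1 rose and none fell, with a median of 0.01. Met, the hepatocyte growth factor receptor, read 6.73, 6.56 and 6.70 in Ezh2 cko and 6.02, 5.88 and 5.77 in control in set 1434447_at (difference 0.77, SE 0.09, adjusted p = 0.022). That call held only without control replicate 1 when single arrays were left out (adjusted p 0.041 to 0.116 over the 6), and the other Met set was at -0.04. St14, or matriptase, was at 0.25 and Prss8, or prostasin, at 0.01, neither past the test, and Tmprss2 was at -0.22.

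None of 11 epithelial regulators passed in limma, and none had an unadjusted p under 0.05. Grhl2, which drives epithelial genes in other tissues, read 5.75 ± 0.06 in Ezh2 cko and 5.76 ± 0.06 in control (SD, n = 3 each), and Esrp2, the paralog of Esrp1, differed by 0.03 (SE 0.18). The widest values were those of Elf3 at -0.18 and Grhl3 at 0.16. Of 8 repressors of Cdh1, none passed and 1, Snai2, had an unadjusted p under 0.05, with a difference of 0.45 (SE 0.16, adjusted p = 0.572). Zeb2 was at -0.25, Twist1 at 0.20 and Snai1 at -0.18. With 1 array left out, these moved between -0.42 and -0.08 for Zeb2, 0.10 and 0.30 for Twist1, -0.29 and -0.0041 for Snai1, and 0.27 and 0.56 for Snai2. The medians of these lists were 0.0055 for regulators and 0.0027 for repressors. The median of the 10 genes, put together with this contrast known, was 0.70 by the same kind of set.

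**Figure D4:**
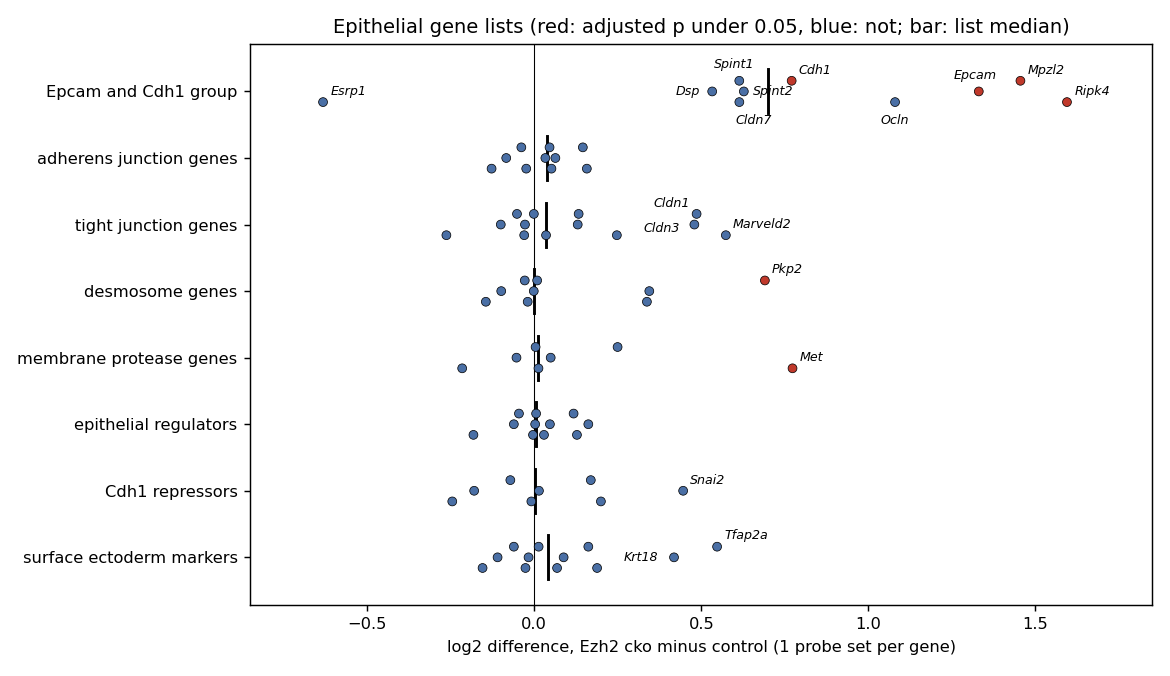
Log2 difference, Ezh2 cko minus control, of each gene by its probe set with the highest mean signal, for the 10 genes (top) and lists of related epithelial genes; red marks an adjusted p under 0.05 in limma, blue the rest, and bars are list medians. The median is 0.70 for the 10 genes, put together with this contrast known, and between -0.0014 and 0.04 for the other lists. Only Pkp2 and Met are red in those lists.

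Markers of cell types that the dissected tissue could hold were measured on the same arrays. Over 12 surface ectoderm markers, none passed in limma and 2, Tfap2a and Krt18, had an unadjusted p under 0.05, against 1614 of all 18193 genes. Their mean deviation from the control means was 0.05 to 0.12 on Ezh2 cko arrays and -0.05 to 0.07 on control arrays, so that the groups overlapped. Of the 12, 7 had a positive and 5 a negative difference. The keratins Krt5 and Krt14 and the epidermal factor Trp63 were at -0.11, -0.15 and -0.06, and Tfap2c and Grhl3 at 0.19 and 0.16. Krt18 was at 0.42 (SE 0.16). Tfap2a was at 0.55 (SE 0.14, adjusted p = 0.302), with its other sets at 0.60 and 0.07. Tfap2a is made in neural crest cells too.

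Afp, made by the visceral endoderm, read 3.53, 6.70 and 3.80 in Ezh2 cko and 8.69, 7.09 and 3.74 in control. Single arrays of both groups were thus high in it, control replicate 1 most of all. Ttr, of the same list and of the choroid plexus list, read 4.31, 5.86 and 7.43 in Ezh2 cko and 6.72, 5.78 and 4.40 in control in set 1459737_s_at, with Ezh2 cko replicate 3 the highest. Over 8 endoderm markers the mean deviation was -0.44 to 0.04 in Ezh2 cko and -0.45 to 0.40 in control. Without control replicate 1 the differences were 1.39 for Epcam 1416579_a_at, 0.70 for Cdh1, 1.55 for Ripk4 1418488_s_at, 1.38 for Mpzl2 1416236_a_at, 0.80 for Spint1 and -0.73 for Esrp1. Without Ezh2 cko replicate 3 they were 1.39 for Epcam, 0.77 for Cdh1, 1.47 for Ripk4, 1.47 for Mpzl2, 0.53 for Spint1 and -0.74 for Esrp1, in the same sets. The groups were apart in each of these sets, so no single array left out could reverse them. Afp also stayed high on arrays that were kept, at 6.70 on Ezh2 cko replicate 2 and 7.09 on control replicate 2. Nothing is therefore read from these differences about endoderm. None of the 8 endoderm and 8 germ cell and pluripotency markers passed in limma (0 and 1 with an unadjusted p under 0.05, the germ cell gene Ddx4 at 0.31).

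In 5 other lists the Ezh2 cko arrays ran higher than the control arrays or nearly so. The mean deviation was 0.15 to 0.33 in Ezh2 cko and -0.05 to 0.05 in control over 6 choroid plexus markers, and 0.22 to 0.37 in Ezh2 cko and -0.17 to 0.16 in control over 5 placode markers. It was 0.18 to 0.33 in Ezh2 cko and -0.13 to 0.10 in control over 9 markers of mesenchyme and neural crest, and 0.14 to 0.28 in Ezh2 cko and -0.02 to 0.03 in control over 11 of midbrain neuroepithelium. Over 6 neuron markers it was 0.14 to 0.60 in Ezh2 cko and -0.25 to 0.16 in control, where the groups overlapped. All these shifts were smaller on every Ezh2 cko array than that of the 10 genes. Since the 10 genes were put together with this contrast known, nothing is read from that. Among the genes of these lists only Clic6, a chloride channel protein of the choroid plexus, passed in limma, at 0.98 (SE 0.14, adjusted p = 0.043). With single arrays left out it passed only without control replicate 2, and its other set was at 0.46. The mean of the choroid plexus list rests largely on Clic6, the highest of the 6 markers. The median difference of that list was 0.11, with 4 positive and 2 negative, Kcnj13 at -0.17 and Kl at -0.02. Clic6, Prrx1 and Wnt1 in these lists are also genes the study picked from these arrays. Over 6 blood and vessel markers the mean deviation was -0.03 to 0.15 in Ezh2 cko and -0.05 to 0.03 in control. The part of any of these cell types in the values of the 10 genes was not tested.

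**Figure D5:**
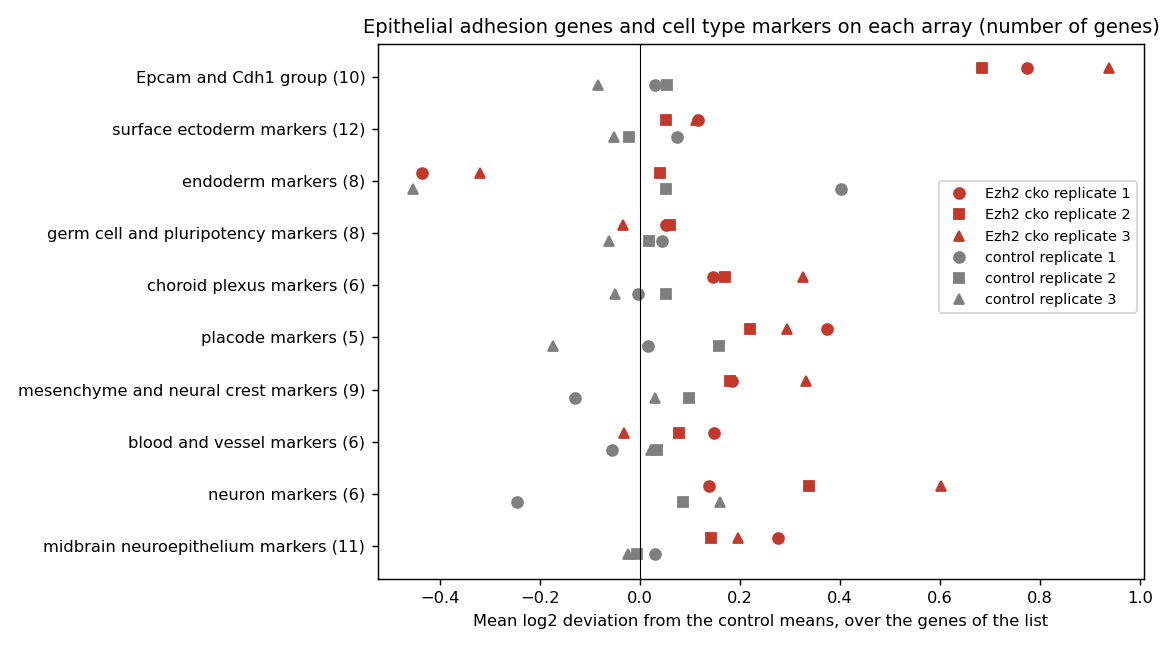
Mean log2 deviation from the control means on each array, over the genes of a list, for the 10 genes (top) and lists of cell type markers, with Ezh2 cko in red above control in grey. The Ezh2 cko arrays are at 0.68 to 0.94 for the 10 genes, at 0.05 to 0.12 for surface ectoderm markers and at 0.14 to 0.60 for neuron markers. The 10 genes were put together with this contrast known.

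The pattern of Epcam 1416579_a_at over the 6 arrays was compared with that of every set annotated to 1 gene, by the root mean square difference of their deviations from their own means. The 5 genes nearest to it were Gpr50 at 0.084, Efhd1 at 0.115, Sfmbt2 at 0.131, Foxa1 at 0.136 and Fgf3 at 0.160. Mpzl2 1416236_a_at came next at 0.168, and the nearest sets of Ocln, Ripk4 and Cdh1 were at 0.256, 0.261 and 0.318. Esrp1 was the farthest of the 10 genes, at 1.02. Since the measure takes in the difference between the groups, sets with a difference near 1.33 lead it by construction. All 5 of the nearest genes are also in the study's own list of genes that differ on these arrays.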

How the data were processed

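The deposited values are log2 signals that the authors made with RMA, a method of background correction, quantile normalization across arrays and summary over the probes of a set. The software and its version are not given in the sources used here. Gene symbols came from the platform's annotation, updated through Entrez identifiers, of which 34741 of 34945 matched. Another 932 probe sets had several symbols and 9160 had none. After 64 control probe sets were left out, 45037 went into 1 linear model per set (lmFit and eBayes of limma 3.58.1, R 4.3.3) whose only term was the group, and p-values were adjusted by the Benjamini-Hochberg method over all of them. The scripts were tested on simulated data.

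The 10 genes, the lists and the tests were chosen with earlier results of these data known. In lists, a gene is represented by its probe set with the highest mean over the 6 arrays. Named from each list were genes with a set past the adjusted p, up to 4 genes with the largest absolute difference, and known partners or paralogs of the 10 genes. Genes such as Tjp3, Marveld3, Dsg2, Kl, Krt5, Krt14, Trp63, Sox2 and En2 fall outside this rule and were named after their values were seen. Some list members were not analysed here. An overlap means that the ranges of the 3 arrays of each group crossed. The labels do not tie samples to embryos or litters, so p-values measure only the spread between these samples. Some samples of a group shared a litter, which the model does not take into account. Arrays carry no depth, and their number limits the precision.

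As alternatives, limma was replaced by an unpaired t-test, its prior was made robust and trended, or arrays were weighted. The values were normalized once more by quantiles, by cyclic loess or by centring on the median. The dimmest 40% of sets or the sets whose probes may cross-hybridise were removed, single arrays were left out, and replicate numbers entered as a block. The methods' threshold and the set with the largest difference per gene were also tried. Promoters came from a RefSeq table on GRCm38.p6.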

Additional observations from a re-analysis of the deposited data

How the results depend on the processing

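The direction of the 18 probe sets was the same in 260 of 260 values under the alternatives, and 0 of them moved by more than 1 SD. Many of these values could not have changed direction. The t-test, the trended and robust prior, the replicate block and the removal of other sets leave a difference as it is. A single array left out cannot reverse a set whose groups are apart. The count of sets past the adjusted p was less firm. With an unpaired t-test in place of limma it was 0 in each direction for every group of sets. At an unadjusted p under 0.05 that test gave 1467 higher and 1558 lower among all 45037 sets. It gave 12 and 1 of the 18 sets, 10 and 4 of 132 related epithelial sets, and 11 and 2 of 137 marker sets. With a trended and robust prior the count past the adjusted p was 106 higher and 5 lower among all sets. It was 6 of the 18 with Ocln 1440220_at added, and 2 higher among marker sets. Marker sets gave 0 higher after the dimmest sets were left out, after quantile normalization again and without sets that may cross-hybridise (24, 25 and 25 higher at an unadjusted p under 0.05). The fit with the replicate number as a block gave 56 higher and 3 lower among all sets, 4 of the 18, and 0 of the related and 0 of the marker sets (17 and 32 higher at an unadjusted p under 0.05). Same-numbered arrays did not deviate together (r = 0.065, -0.203 and 0.063). With 3 arrays a group this could miss a weak pairing, so whether the numbers pair the samples is not known. With 1 array left out, limma called 20 to 44 sets higher and 1 to 4 lower among all, 3 to 4 of the 18, and 0 to 1 of the related and of the marker sets. The median of all sets stayed between -0.0257 and -0.0024. The number of arrays, 3 a group, limits all of these.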
